A study of Saccharomyces cerevisiae with 12 samples.

Results

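Heat shock proteins and molecular chaperones were examined as 10 genes, taken from the 6600 features of the count table by their systematic identifiers. They are the small heat shock proteins HSP12 (YFL014W), HSP26 (YBR072W) and HSP42 (YDR171W), the membrane protein gene HSP30 (YCR021C), the disaggregase gene HSP104 (YLL026W), the Hsp90 gene HSP82 (YPL240C), and the cytosolic Hsp70 genes SSA1 (YAL005C), SSA2 (YLL024C), SSA3 (YBL075C) and SSA4 (YER103W). All 10 passed the filter on low values, among 5909 genes that did. The libraries came from cultures of the haploid laboratory strain BY4741 of Saccharomyces cerevisiae, kept at 30 °C for 20 h in diluted YPD with or without PeAfpA, a small cysteine-rich antifungal protein of Penicillium expansum. There were 3 libraries of untreated controls (1A, 1B and 1C), and 3 each of cultures with 1 µg/mL (2A, 2B and 2C), 2 µg/mL (3A, 3B and 3C) and 4 µg/mL PeAfpA (4A, 4B and 4C). All groups shared the strain, the medium and the time. Treated cultures were held with the protein throughout, and each culture was sampled once. The labels name the material as mycelia, while the organism is a budding yeast. Levels are shares of the messenger RNA of a whole culture, in which fewer cells using a gene and less RNA of it per cell cannot be told apart.

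Chaperones bind unfolded or misfolded proteins. Hsp70s of the SSA family hold and release short hydrophobic stretches with the help of Hsp40 co-chaperones. Hsp90 completes the folding of kinases, receptors and other clients, and Hsp104 pulls proteins out of aggregates. The small heat shock proteins Hsp26 and Hsp42 hold unfolded proteins in a state from which they can be recovered. In budding yeast the genes are read through 2 main kinds of promoter element. The heat shock factor Hsf1 binds heat shock elements (HSE), and Msn2 and Msn4 bind the stress response element (STRE) when protein kinase A activity is low. A related element, the post-diauxic shift element (PDS), was described in the promoter of SSA3 and is bound by Gis1. The SSA genes divide by use. SSA1 and SSA2 are expressed in growing cells, whereas SSA3 and SSA4 are known as stress-inducible, and SSA3 also as a gene that rises when glucose runs out.

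The promoters are shown for the members whose values differed most, SSA3, HSP30, HSP82 and HSP104, and for HSP12, the most abundant member. Each window holds 250 bases before and 50 bases from the start codon, which is the gene start in the RefSeq annotation of assembly R64, and is written 5′ to 3′ on the strand of the gene. Capitals mark letters of AGGGG (STRE), GAANNTTC or TTCNNGAA (paired HSE units, each its own reverse complement) and TTAGGGAT or TAAGGGAT (PDS), on either strand. The windows lie at chrII:86399-86698 (- strand), chrIII:157058-157357 (- strand), chrXVI:98576-98875 (- strand), chrXII:88373-88672 (+ strand) and chrVI:107006-107305 (+ strand).
SSA3: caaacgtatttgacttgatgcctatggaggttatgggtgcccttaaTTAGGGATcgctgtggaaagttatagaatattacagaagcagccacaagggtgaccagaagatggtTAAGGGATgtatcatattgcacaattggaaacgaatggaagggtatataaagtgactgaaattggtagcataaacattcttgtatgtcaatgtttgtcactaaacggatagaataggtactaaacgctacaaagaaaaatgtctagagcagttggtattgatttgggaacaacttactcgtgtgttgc
HSP30: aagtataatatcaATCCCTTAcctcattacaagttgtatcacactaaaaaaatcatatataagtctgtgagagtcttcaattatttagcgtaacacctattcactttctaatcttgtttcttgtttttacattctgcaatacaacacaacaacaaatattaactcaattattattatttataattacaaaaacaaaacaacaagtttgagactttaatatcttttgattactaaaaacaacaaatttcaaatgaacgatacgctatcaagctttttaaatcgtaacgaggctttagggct
HSP82: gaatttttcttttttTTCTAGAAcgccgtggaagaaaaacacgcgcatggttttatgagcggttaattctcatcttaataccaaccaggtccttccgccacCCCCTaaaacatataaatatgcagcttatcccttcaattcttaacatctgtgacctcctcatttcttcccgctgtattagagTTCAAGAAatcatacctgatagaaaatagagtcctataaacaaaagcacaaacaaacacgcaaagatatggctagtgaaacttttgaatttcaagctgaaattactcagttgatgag
HSP104: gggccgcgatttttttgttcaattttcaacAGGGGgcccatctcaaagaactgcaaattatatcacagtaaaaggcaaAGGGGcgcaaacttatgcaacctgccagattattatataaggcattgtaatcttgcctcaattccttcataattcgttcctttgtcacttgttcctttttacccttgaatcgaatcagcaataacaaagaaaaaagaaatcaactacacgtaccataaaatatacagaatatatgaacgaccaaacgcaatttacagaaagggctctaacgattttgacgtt
HSP12: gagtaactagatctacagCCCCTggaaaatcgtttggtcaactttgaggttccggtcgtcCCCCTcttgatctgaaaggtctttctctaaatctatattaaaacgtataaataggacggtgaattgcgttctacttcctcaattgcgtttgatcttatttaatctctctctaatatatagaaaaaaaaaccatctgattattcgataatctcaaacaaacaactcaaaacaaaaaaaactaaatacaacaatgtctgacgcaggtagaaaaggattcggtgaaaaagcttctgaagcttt

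The STRE letters were present in 6 of the 10 members and in 21.6% of the 6001 windows of this length in the genome, and at least 1 of the paired HSE units in 4 members and in 22.6% of windows. HSP42 held 3 STRE matches and 3 paired HSE units that overlap each other, SSA1 held both kinds, SSA2 held HSE units without STRE letters (1 pair of them overlapping), SSA4 held 1 STRE match, and HSP26 held neither. SSA3 and HSP30, whose counts fell furthest, also held neither, and this was still so in a window of 500 bases before the start, where 7 members held STRE letters and 7 held paired HSE units. PDS letters stood in the windows of SSA3, 204 and 138 bases before the start codon, and of HSP30, 237 bases before it, and in none of the other 8 members. In all, 1.58% of windows held them. The PDS search was chosen after the promoter of SSA3 had been read, and a match of letters says nothing of binding. Only exact letters were searched, so a window without a match, as in SSA3, HSP30 or SSA4 for HSE units, is not shown to lack the element.

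Of the 10 genes, 5 were lower at 4 µg/mL than in the controls and none was higher (edgeR's quasi-likelihood test, Benjamini-Hochberg adjusted p under 0.05). Among all genes tested, 23.0% were lower and 19.3% higher. The 5 were SSA3, HSP30, HSP82, HSP104 and SSA4, with log2 fold changes of -4.01, -3.22, -1.24, -1.23 and -1.04. The median log2 fold change was -0.92 over the 10 members and -0.04 over all genes. In 6 members all 3 libraries at 4 µg/mL lay below all 3 controls, which was so for 31.7% of all genes. In 1 member, SSA2, they lay above, which was so for 1620 of the 5909 genes tested. The calls of SSA3, HSP30 and HSP104 held in 21 alternative fits, 12 of which left out a library, whereas those of HSP82 and SSA4 were lost without library 1B, 1C or 4C, which left 3 members called in each case.

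**Figure D1:**
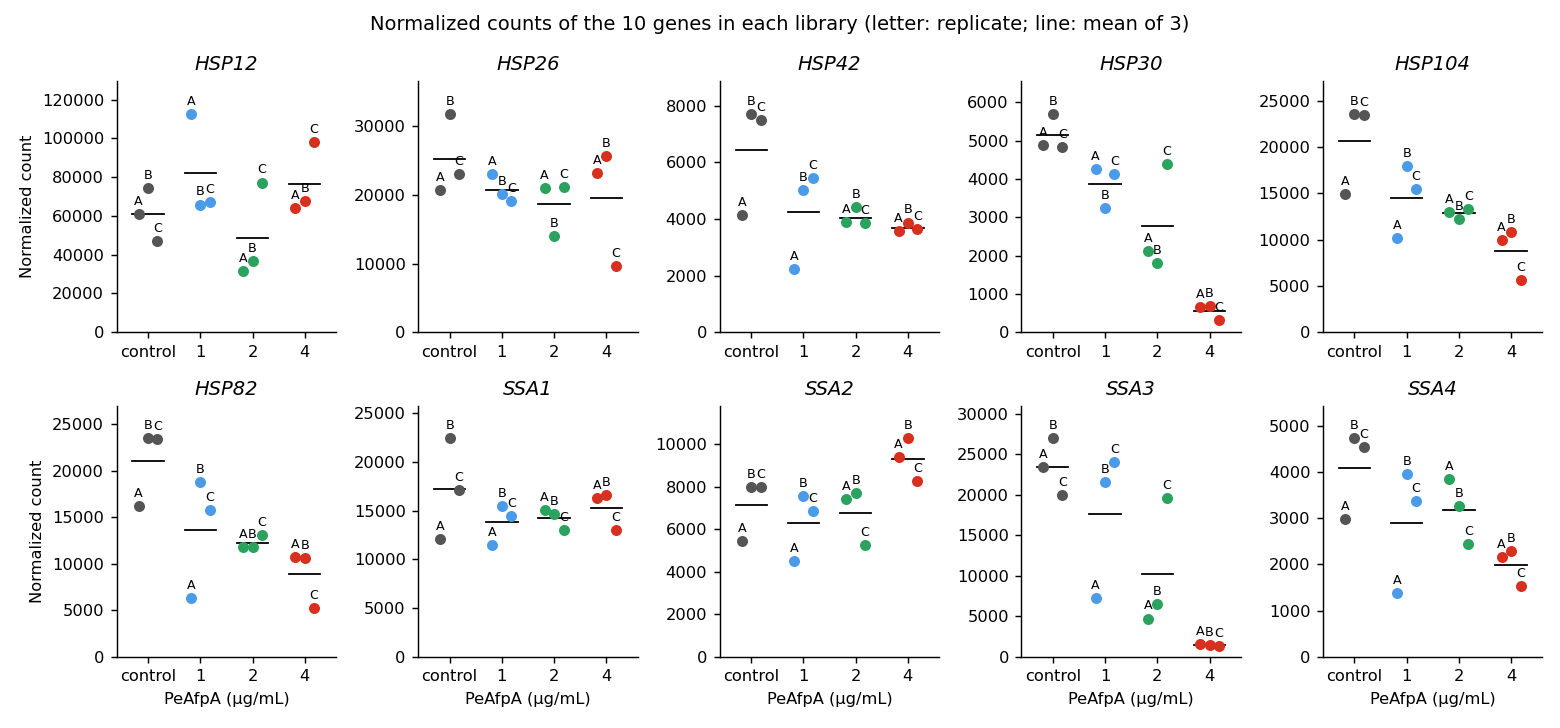
Normalized counts (vertical axes, linear, from 0) of the 10 genes in the 12 libraries, by PeAfpA concentration. Points are libraries labelled with their replicate letter and lines are means of 3. SSA3 and HSP30 are lowest in the 3 libraries at 4 µg/mL, and 3C stands apart from 3A and 3B in HSP12, HSP30 and SSA3.

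**Figure D2:**
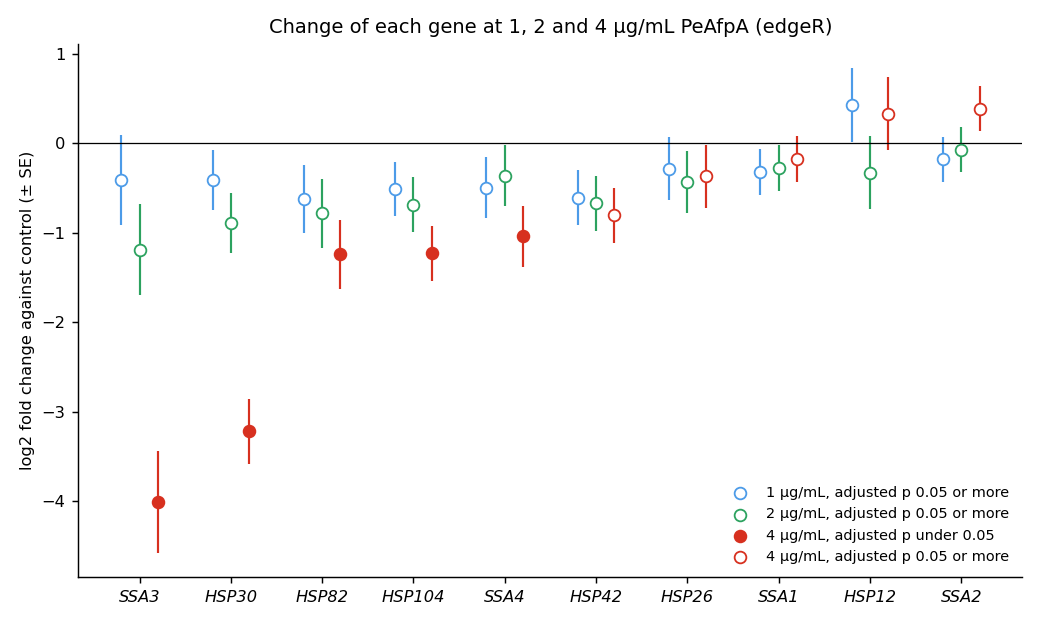
Log2 fold change against control (vertical axis) with its standard error at 1, 2 and 4 µg/mL PeAfpA, from edgeR. Filled points have an adjusted p under 0.05, which only SSA3, HSP30, HSP82, HSP104 and SSA4 at 4 µg/mL reached.

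The 12 libraries held 7153797 to 10270183 counts. Library 4C had a TMM factor of 0.808 and 2A of 0.846, while the others lay between 0.99 and 1.12. Over all genes, the library nearest to 3C was 2B and not a replicate of its own condition, and likewise the nearest to 2A and 2B was 3C and to 1A was 2B. Library 2A lay below both of its replicates in 7 members, 4C in 8 and 1A in 7. Across all genes these shares were 42.6%, 43.0% and 34.2%. Control library 1B lay above both of its replicates in 9 members, and 4B in 7, for which the share over all genes was not counted. The median log2 differences of the members from the mean of the replicates were 0.35 in 1B and 0.27 in 4B, against 0.012 and -0.0085 over all genes. The part that differences between single cultures play in the results was not tested.

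SSA3, one of the stress-inducible cytosolic Hsp70 genes, had the largest difference of the 10. It had 23405, 26978 and 19956 normalized counts in the controls, 7269, 21652 and 24114 at 1 µg/mL, 4729, 6474 and 19666 at 2 µg/mL, and 1605, 1448 and 1312 at 4 µg/mL. At 4 µg/mL all libraries lay below every other library, whereas at 2 µg/mL libraries 3A and 3B were low and 3C was near the controls, and at 1 µg/mL only 2A was low. SSA3 was 16.1 times lower at 4 µg/mL than in the controls (log2 fold change -4.01, SE 0.57, edgeR adjusted p = 0.000532). Its fall held when any single library was left out (-4.11 to -3.90). Per length, SSA3 had 69.6 ± 16.2 TPM at 4 µg/mL and 1336 ± 104 TPM in the controls (SD, n = 3 each), and stood at rank 2133 of all genes by mean TPM at 4 µg/mL and at rank 112 in the controls.

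SSA4 has 87.7% of its protein residues in common with SSA3 and is known for its strong induction by heat. It had 2156, 2282 and 1534 normalized counts at 4 µg/mL, against 2995, 4731 and 4552 in the controls, without overlap. The log2 fold change of -1.04 (SE 0.34) had an adjusted p of 0.0276 by edgeR, and 0.0852, 0.0808 and 0.108 without 1B, 1C and 4C. At 2 µg/mL, SSA4 had 3858, 3274 and 2439 normalized counts, and at 1 µg/mL 1381, 3963 and 3372, both overlapping with the controls.

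SSA1 and SSA2, the constitutive members of the family, code for proteins that share 97.7% of residues. Of all stretches of 75 bases, the read length, 51.9% of those in SSA1 and 52.2% of those in SSA2 also occur elsewhere in the genome. Their counts are therefore uncertain, since reads common to both could have been split or left out. SSA1 had 16243, 16639 and 13015 normalized counts at 4 µg/mL, within the range of the controls, 12101, 22394 and 17149. SSA2 had 9420, 10275 and 8286 at 4 µg/mL, against 5440, 7971 and 8008 in the controls, so that all libraries lay above the controls, yet its log2 fold change of 0.39 (SE 0.25) did not pass edgeR's test (adjusted p = 0.23). Limma-voom with sample quality weights called SSA2 higher (adjusted p = 0.0159), the only one of the 21 alternatives that did. With the counts of both genes summed the log2 fold change was 0.016 (SE 0.27, edgeR adjusted p = 0.97).

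The makeup of the SSA family in TPM differed between the conditions. SSA3 made up 5.14% ± 0.41 of the summed TPM of the 4 genes at 4 µg/mL and 45.3% ± 6.80 in the controls (SD, n = 3 each), without overlap. At 1 µg/mL it made up 29.2% to 49.1%, and at 2 µg/mL 15.1% to 48.5%, with 3C as the highest. Reads left out of SSA1 and SSA2 would make these shares too high. Among the 10 members SSA3 was number 9 by mean TPM at 4 µg/mL and number 3 in the controls. At 4 µg/mL HSP30 alone was lower, by less than its own SD.

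**Figure D3:**
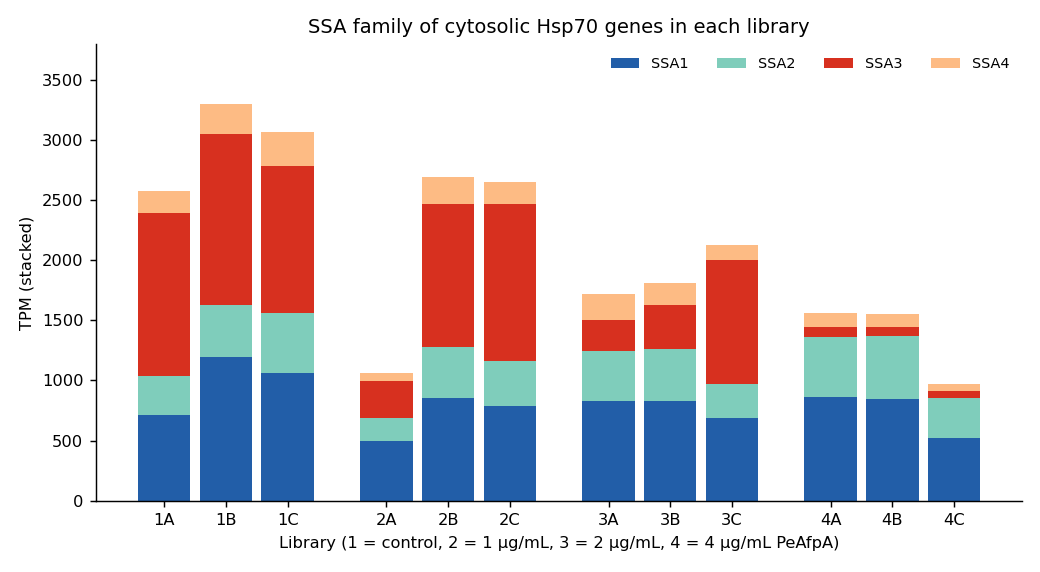
TPM of SSA1, SSA2, SSA3 and SSA4, stacked, in each of the 12 libraries (horizontal axis, 1A to 4C). The SSA3 segment is small in 4A, 4B and 4C, where it is 4.67% to 5.39% of the stack, and 39.9% to 53.0% in 1A, 1B and 1C.

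HSP82 and HSP104 were both lower at 4 µg/mL, by similar amounts. HSP82 codes for the inducible form of Hsp90. It had 10750, 10656 and 5244 normalized counts at 4 µg/mL, against 16194, 23459 and 23410 in the controls, a log2 fold change of -1.24 (SE 0.38, edgeR adjusted p = 0.0216) without overlap. Library 4C was the lowest of all 12, and without it the log2 fold change was -0.96 with an adjusted p of 0.0795. Without 1B and 1C the adjusted p was 0.0627 and 0.065.

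HSC82, the constitutive Hsp90 gene, codes for a protein sharing 96.9% of residues with Hsp82 but has only 2.20% of its stretches of 75 bases in common with other sequence. It had 22903, 23001 and 24769 normalized counts at 4 µg/mL, within the range of the controls, 21069, 26755 and 25531 (log2 fold change -0.05, SE 0.22, edgeR adjusted p = 0.86). HSP82 made up 26.9% ± 8.25 of the TPM of the pair at 4 µg/mL and 45.9% ± 2.27 in the controls (SD, n = 3 each). With the counts of the pair summed, the log2 fold change was -0.49 and did not pass the test (SE 0.27, edgeR adjusted p = 0.16).

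HSP104, which separates aggregated proteins together with Hsp70 and Hsp40, had 10002, 10778 and 5659 normalized counts at 4 µg/mL. The controls had 14945, 23595 and 23432, so that the groups did not overlap. Its log2 fold change of -1.23 (SE 0.31) had an edgeR adjusted p of 0.00873, and between 0.000223 and 0.0351 over the 21 alternatives. HSP104 was also lower than all controls in each library at 2 µg/mL, with 12986, 12266 and 13258 normalized counts.

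The member nearest to HSP82 over the 12 libraries was HSP104, with a root mean square difference of 0.20 between their centred log2 values, against a median of 0.69 between HSP82 and all genes. The gene nearest to both was VPS73 (0.19 to HSP82 and 0.11 to HSP104). HSP78, the mitochondrial relative of HSP104, was at 0.15 from HSP104, with VPS73 and 1 other gene nearer.

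HSP30 codes for a plasma membrane protein that lowers the activity of the proton pump Pma1 under stress, and not for a chaperone. It had 4894, 5700 and 4838 normalized counts in the controls, 4256, 3247 and 4126 at 1 µg/mL, 2125, 1814 and 4402 at 2 µg/mL, and 665, 676 and 311 at 4 µg/mL. The libraries of each concentration lay below all controls, and those at 4 µg/mL below every other library. HSP30 was 9.32 times lower at 4 µg/mL than in the controls (log2 fold change -3.22, SE 0.37, edgeR adjusted p = 0.000136), and -3.39 to -2.92 when any single library was left out. Its nearest member was SSA3, at a root mean square difference of 0.60, where SSA3 was the 69th nearest gene. The nearest gene to HSP30 was RTC2, a vacuolar amino acid exporter gene (0.29), and to SSA3 it was NDE2, which codes for an external NADH dehydrogenase of mitochondria (0.30). For the other members the nearest genes were YGR117C for HSP12, COS9 for HSP26, FRQ1 for HSP42, FCF1 for SSA1, ISU2 for SSA2 and PGC1 for SSA4, at 0.12 to 0.22. Each of these values is a description over 12 libraries that share their normalization.

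None of the 3 small heat shock protein genes passed the test. HSP12, whose product associates with membranes, was the most abundant member by TPM in every condition and had rank 2 of all genes by mean TPM in the controls and at 2 and 4 µg/mL, and rank 1 at 1 µg/mL. It had 64166, 67618 and 98008 normalized counts at 4 µg/mL, overlapping with 61003, 74372 and 47176 in the controls (log2 fold change 0.33, SE 0.41, edgeR adjusted p = 0.54). The highest library of all was 2A, with 112737, and the lowest were 3A and 3B, with 31650 and 36728, while 3C had 77258.

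HSP26 came next by TPM in every condition. It had 23187, 25677 and 9657 normalized counts at 4 µg/mL and 20721, 31829 and 23084 in the controls. The spread at 4 µg/mL was set by 4C (log2 fold change -0.37, SE 0.35, edgeR adjusted p = 0.41, and -0.028 without 4C). HSP42 had 3558, 3873 and 3652 at 4 µg/mL, all below 4146, 7715 and 7484 in the controls, and the 3 libraries differed little from each other. Its log2 fold change of -0.80 (SE 0.31) did not pass edgeR's test (adjusted p = 0.0528), but did in 9 of the 21 alternatives, among them DESeq2 (adjusted p = 0.0357) and the fit without 1A, the lowest control (-1.04, adjusted p = 0.027).

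At 2 µg/mL none of the 10 genes passed edgeR's test, nor did any of the 5909 genes (0.0%), of which 573 had an unadjusted p under 0.05. The fitted value was negative for 10 of the 10 genes, with a median of -0.55 against -0.01 over all genes. In 4 members, HSP30, HSP82, HSP104 and SSA3, the libraries lay below all controls, which was so for 9.19% of all genes. These values were -0.89, -0.78, -0.69 and -1.19 on the log2 scale, with edgeR adjusted p-values from 0.47 to 0.53. Without library 3C, HSP30 (-1.37, edgeR adjusted p = 0.0447) and SSA3 (-2.05, adjusted p = 0.0442) passed the test, among 131 genes that did. Limma-voom with sample quality weights called 5 members lower, HSP30, HSP42, HSP82, HSP104 and SSA3, and 1281 genes in all.

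At 1 µg/mL no member and no gene passed edgeR's test (0.0%), and 536 genes but no member had an unadjusted p under 0.05. The fitted value was negative for 9 of the 10 genes, HSP12 being the exception at 0.43. Only in HSP30 did the libraries lie below all controls, as in 8.53% of all genes. Library 2A was the lowest of the 12 in HSP42, SSA1, SSA2 and SSA4 and the highest in HSP12. The comparisons with the controls share the control libraries and are given side by side for that reason.

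Between 4 and 2 µg/mL, 2 members were lower and none was higher, where 18.7% of all genes were lower and 15.4% higher. SSA3 differed by -2.82 on the log2 scale (SE 0.54, edgeR adjusted p = 0.00389) and HSP30 by -2.33 (SE 0.35, adjusted p = 0.00114). HSP82, HSP104 and SSA4 were also without overlap, at -0.46, -0.54 and -0.68, but did not pass the test (edgeR adjusted p = 0.36, 0.18 and 0.13). In all, 5 members lay below every library at 2 µg/mL, as did 1651 of the 5909 genes. SSA2 lay above (0.46, edgeR adjusted p = 0.17), as did 1445 genes. Between 4 and 1 µg/mL the same 2 genes were lower, SSA3 by -3.60 (SE 0.56, edgeR adjusted p = 0.0011) and HSP30 by -2.81 (SE 0.36, adjusted p = 0.000322), where 15.6% of all genes were lower and 10.8% higher. Without library 2A, HSP82 (-0.96), HSP104 (-0.92) and SSA4 (-0.88) passed as well, with edgeR adjusted p-values of 0.0258, 0.0262 and 0.0159. In that fit 2528 genes passed, 1305 lower and 1223 higher, against 1559 with all libraries. With all libraries, SSA3 and HSP30 at 4 µg/mL lay below every library at 1 µg/mL, as did 1227 of the 5909 genes. SSA2 lay above (0.56, edgeR adjusted p = 0.11), as did 1034 genes.

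The members together made up 2.63% ± 0.05 of all TPM at 4 µg/mL and 3.09% ± 0.36 in the controls (SD, n = 3 each), ranges that did not overlap. Their share was 2.95% to 3.34% at 1 µg/mL and 1.71% to 3.14% at 2 µg/mL, both overlapping with the controls. Most of the share was HSP12, at 2.10% ± 0.18 at 4 µg/mL and 2.04% ± 0.31 in the controls. The other 9 made up 0.533% ± 0.223 at 4 µg/mL and 1.05% ± 0.159 in the controls. For these 9 the highest library at 4 µg/mL (0.673%) lay below the lowest control (0.867%). So did all libraries at 1 µg/mL (0.509% to 0.849%) and at 2 µg/mL (0.589% to 0.740%). By mean TPM the order in the controls was HSP12, HSP26, SSA3, HSP82, SSA1, HSP104, HSP42, HSP30, SSA2 and SSA4. The means of HSP82 and SSA1, of SSA1 and HSP104, and of HSP42 and HSP30 lay within 1 SD of each other, and the step from HSP12 to HSP26 was the widest. At 4 µg/mL the order was HSP12, HSP26, SSA1, SSA2, HSP82, HSP104, HSP42, SSA4, SSA3 and HSP30, where neighbours from SSA2 to HSP42 and from SSA4 to HSP30 differed by less than the larger SD. Reads left out of SSA1 and SSA2 would make their TPM too low, so the places of these genes in both orders are uncertain.

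Chaperones outside the 10 were taken from 9 further lists. Among 78 tested genes of 7 lists of chaperones and co-chaperones, 11 were lower and 19 higher at 4 µg/mL than in the controls, and 48 did not pass edgeR's test. Among all genes tested, 23.0% were lower and 19.3% higher, the background for each of the list counts that follow. None passed at 2 or 1 µg/mL. Of Hsc82 and 12 co-chaperones of Hsp90, 2 were lower and 1 higher. STI1, which links Hsp70 to Hsp90, had 5309, 5322 and 4574 normalized counts at 4 µg/mL, against 7511, 11072 and 9589 in the controls (log2 fold change -0.89, SE 0.25, edgeR adjusted p = 0.0142), and TAH1 had a log2 fold change of -0.76. CPR7, a cyclophilin, was higher, at 0.51. Each of these 3 calls was lost without 1B, and the lower calls numbered 0 then. TAH1 and CPR7 also lost theirs without 1A, 1C or 4C, and TAH1 without 3A, 4A or 4B. With library size alone CPR7 was at 0.30 and did not pass the test (edgeR adjusted p = 0.12).

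Of 15 cytosolic Hsp40s and exchange factors of Hsp70, 3 were lower, among them APJ1 (-1.04) and JJJ2 (-0.56), and none was higher. APJ1, an Hsp40 that acts on aggregates with Ssa proteins, had 748, 679 and 749 normalized counts at 4 µg/mL and 1727, 1491 and 1243 in the controls, and kept its call in 21 alternatives. Only 1 of the 15 was lower without 1A, 1B, 1C, 4B or 4C, in each of which JJJ2 lost its call (-0.35 without 4C). JJJ2 also lost it with the replicate block (edgeR adjusted p = 0.0565), where 1 was lower, and with the 2 groups alone (adjusted p = 0.0545), where 2 were. Of 11 mitochondrial chaperones 2 were lower and 1 higher. ECM10, a mitochondrial Hsp70 gene, had 194, 211 and 154 normalized counts at 4 µg/mL, against 509, 584 and 529 in the controls (log2 fold change -1.53, SE 0.25, edgeR adjusted p = 0.00121). HSP78 was lower by -0.95 and lost its call without 1C or 4C, and MGE1, the exchange factor of mitochondrial Hsp70, was higher by 0.42 and lost it without 1A, 1C, 4B or 4C, and with library size alone (0.22, edgeR adjusted p = 0.20).

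The ribosome-associated chaperones receive new chains as they leave the ribosome. Of 7 tested, 6 were higher and none lower, with a median log2 fold change of 0.76 against -0.04 over all genes. SSB1, which codes for an Hsp70, had 7949, 9183 and 15097 normalized counts at 4 µg/mL, against 6314, 4708 and 5272 in the controls (log2 fold change 0.98, SE 0.29, edgeR adjusted p = 0.0169). It lost its call without 1B, 1C or 4C (0.67 without 4C, adjusted p = 0.0662). ZUO1, the Hsp40 partner of the Ssb proteins, had 4412, 5782 and 7287 at 4 µg/mL and 2820, 3341 and 3056 in the controls (0.92, SE 0.21, adjusted p = 0.00532). SSB1 and SSB2 have 36.3% of their stretches of 75 bases in common with other sequence, so the division of counts between them is uncertain. Without 1A or 1B only 2 of the 7 passed the test, without 1C or 4C only 1, and with library size alone 3.

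The chaperonin CCT and prefoldin, which fold actin and tubulin, had 4 of 14 genes higher and none lower. All 4 were prefoldin subunits, with GIM4 (0.95) and GIM3 (0.65) at the head. Without 1B the count was 2, and with library size alone it was 1. Of 13 chaperones of the endoplasmic reticulum, 6 were higher and 1, CNE1 (calnexin, -0.61), was lower. PDI1, protein disulfide isomerase, had 9641, 12427 and 26199 normalized counts at 4 µg/mL and 5079, 7291 and 6276 in the controls (log2 fold change 1.37, SE 0.34, edgeR adjusted p = 0.0087, and 0.84 without 4C). SIL1, an exchange factor of the Hsp70 of this compartment, had 459, 535 and 1820 at 4 µg/mL and 344, 323 and 385 in the controls, so that 4C set its size (log2 fold change 1.42, and 0.52 without 4C). Only 1 of the 13 was higher without 1A or 4C and 2 without 1B, and CNE1 lost its call in 15 of the 21 alternatives.

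Of 5 tested genes among the Hsp31 family and factors that sort misfolded proteins, 3 were lower and 1 higher. HSP33 had 11.4, 15.3 and 1.28 normalized counts at 4 µg/mL and 88.9, 105 and 92.5 in the controls. SNO4 had 8.56, 4.51 and 1.28 at 4 µg/mL and 29.6, 29.9 and 22.0 in the controls. Both are low and uncertain, with 70.9% and 68.8% of their stretches of 75 bases found elsewhere. CUR1, a sorting factor, was higher by 0.71.

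**Figure D4:**
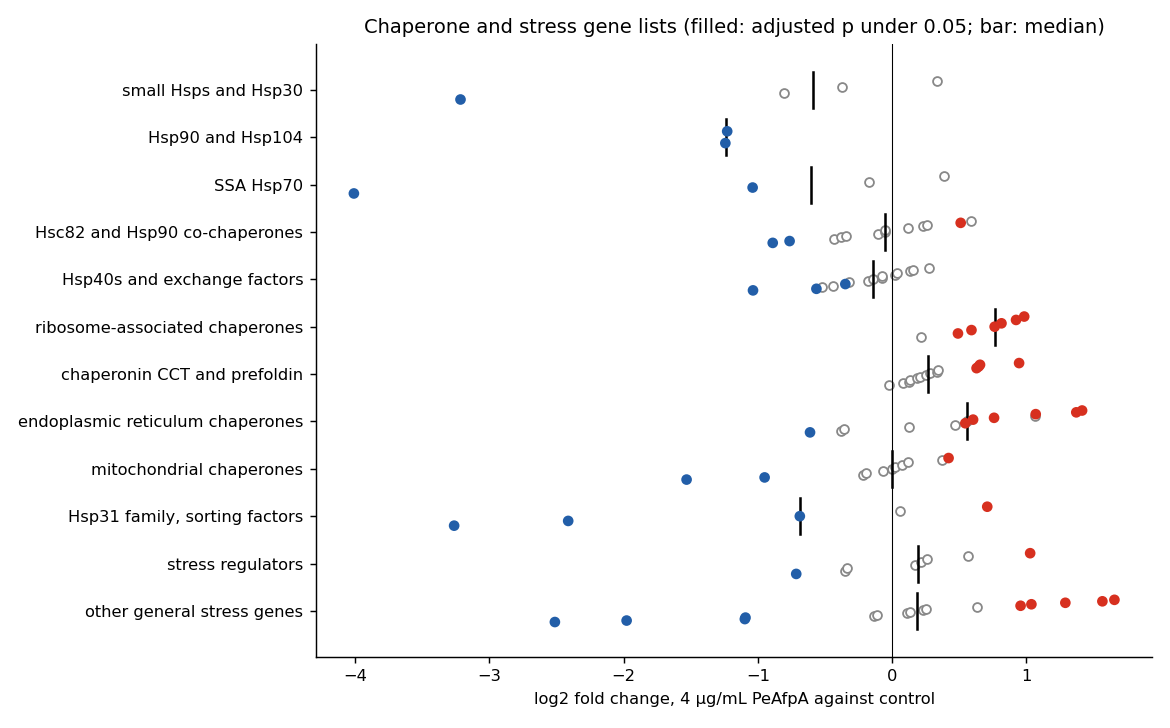
Log2 fold change of 4 µg/mL PeAfpA against control (horizontal axis) of each tested gene in the 3 groups of members (top) and the 9 further lists. Filled points passed edgeR's test (blue lower, red higher) and bars are list medians, which are -0.60 in the SSA genes and 0.76 in the ribosome-associated chaperones.

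Of 8 transcription factors and kinases of the heat shock and general stress response, 1 was lower and 1 higher in its own messenger RNA. HSF1 had 1329, 1225 and 1377 normalized counts at 4 µg/mL, all below 1729, 1598 and 1676 in the controls, with a log2 fold change of -0.35 that did not pass edgeR's test (SE 0.14, adjusted p = 0.0548) but did in 5 of the 21 alternatives. MSN2 (0.56, adjusted p = 0.0641) and MSN4 (0.17, adjusted p = 0.61) overlapped with the controls. MSN2 was called higher in 5 of the 21 alternatives, both DESeq2 fits (adjusted p = 0.0336), RLE factors (0.0495) and the fits without 2A or 4B, and its value was 0.33 without 4C. GIS1, the PDS-binding factor, was lower, with 714, 676 and 682 normalized counts at 4 µg/mL, against 1249, 834 and 1318 in the controls (log2 fold change -0.71, SE 0.22, edgeR adjusted p = 0.0208), a call lost without 1A, 1C, 4B or 4C. SKN7, a factor of the oxidative stress response, was higher (1.03). Levels of messenger RNA do not show the activity of these proteins.

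Other genes of the general stress response went both ways, with 4 of 16 lower and 5 higher. GRE1, a hydrophilin gene, had 15999, 9426 and 2605 normalized counts at 4 µg/mL, against 60635, 60667 and 38678 in the controls (log2 fold change -2.51, SE 0.53, edgeR adjusted p = 0.00405). CTT1, cytosolic catalase, had a log2 fold change of -1.98. The higher ones included the cell wall protein gene SED1 (1.66) and DDR48 (1.57). SED1 lost its call without 1A (1.46, edgeR adjusted p = 0.07), 1B (1.72, adjusted p = 0.052) or 4C (1.30, adjusted p = 0.0579). The higher genes numbered 2 without 1A or 4C and 3 without 1B or 1C.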

How the data were processed

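RNA-seq libraries of 3 flask cultures per condition were analysed from the deposited counts. Single-end reads had been trimmed by the authors (Trimmomatic 0.39), aligned to the S288C genome R64 (Bowtie2 2.3.2) and counted per gene (HTSeq 0.9.0), and the deposited counts are whole reads without normalization. The strand and overlap settings are not given in the sources used here, so reads of antisense or near-identical genes may be misassigned. No member overlaps another annotated gene.

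Conditions were taken from the labels. Of 6600 features, 5917 matched the annotation and 683 did not, holding 0.172% to 0.323% of counts. Genes with a mean of at least 1 TPM, or 1 CPM without a length, were kept, which left 5909. Counts were tested with edgeR 4.0.16 (R 4.3.3), TMM factors and a quasi-likelihood F test, in 1 fit of 4 conditions over 12 libraries, with Benjamini-Hochberg adjustment over all genes. Normalized counts are counts divided by the TMM-scaled library size and multiplied by the mean of these sizes. The standard error of a log2 fold change is its size over the square root of F. Likeness between genes is the root mean square difference of log2(normalized count + 1) after centring each gene. The fit was tested on simulated data.

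The 21 alternatives were DESeq2 1.42.0 with and without independent filtering, limma-voom with quality weights per sample (limma 3.58.1), RLE factors, library size alone, a filter of at least 1 count, filterByExpr, only the 2 groups compared, a replicate block, and 12 fits that each left out 1 library. Besides the 10 members, the text names HSC82, HSF1, MSN2 and MSN4, up to 2 called genes in each direction with the largest changes per list, and the genes nearest to a member. As a gene near HSP104, HSP78 was named after its values were seen. The members and lists were chosen with earlier results of these data known. That cultures were separate flasks is as the methods state, and the tests set differences between conditions against the spread between these cultures.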

Additional observations from a re-analysis of the deposited data

How the results depend on the processing

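The number of members called at 4 µg/mL was 5, 6 with DESeq2, library size alone, the 2 groups compared and the replicate block, and 7 (6 lower, and SSA2 higher) with limma-voom. With 1 library left out it lay between 3 and 6. The 2496 genes called in all became 3477 with limma-voom, and 1491 (without 4C) to 2783 (without 2A) with 1 library left out. Scaling by library size alone gave a median of -0.24 over all genes, against -0.04, and 1570 lower and 756 higher calls, against 1357 and 1139. RLE factors gave 1241 and 1242, and DESeq2 1343 and 1363. At 2 µg/mL DESeq2 called 34 genes, the fit of the 2 groups 23 and limma-voom 1281 with 5 members. With 1 library left out, 0 to 131 genes and 0 to 2 members were called. At 1 µg/mL DESeq2 called 4 genes, or 14 with independent filtering, limma-voom 2, and no fit called a member. Between 4 and 2 µg/mL the 2 members and 2014 genes became 5 (3 lower, with HSP12 at 0.94 and SSA2 at 0.46 higher) and 3462 with limma-voom, and 2 to 3 and 906 to 2486 with 1 library left out. Between 4 and 1 µg/mL the 2 members and 1559 genes became 6 and 3639 with limma-voom, 4 members with DESeq2 (SSA2 higher in both, at 0.47 and 0.58, and the others lower), 472 genes with the 2 groups alone, and 2 to 5 members and 591 to 2528 genes with 1 library left out. The cause of these differences was not tested.

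Signs changed only for values that did not pass the test. With limma-voom HSP26 and SSA1 at 4 µg/mL were 0.031 and 0.020, SSA2 was 0.042 at 2 and 0.030 at 1 µg/mL, and between 4 and 1 µg/mL HSP12 and HSP26 were 0.0078 and 0.28. With library size alone HSP26 and SSA1 were -0.013 and -0.0088 between 4 and 2 µg/mL. The summed counts gave 0.016 for SSA1 with SSA2 at 4 µg/mL, and 0.084 for HSP82 with HSC82 between 4 and 2 µg/mL. With 1 library left out, the ranges at 4 µg/mL were -0.37 to 0.065 for SSA1, -0.15 to 0.016 for HSC82 and -0.037 to 0.41 for MSN4. For SSA2 they were -0.24 to 0.093 at 2 and -0.34 to 0.024 at 1 µg/mL. Between 4 and 2 µg/mL HSP26 ranged over -0.19 to 0.39. Between 4 and 1 µg/mL HSP12 ranged over -0.30 to 0.20, HSP26 over -0.34 to 0.25 and HSP42 over -0.50 to 0.027.

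Same-numbered libraries did not pair: 6 of 18 pairs had correlations of their deviations over 0.1 (range -0.35 to 0.24). The replicate block gave 2216 genes and 6 members at 4 µg/mL, with HSP42 added (adjusted p = 0.0488), and -0.0099 for HSP26 between 4 and 2 µg/mL.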

Other observations

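The promoter letters were also counted over all genes, as a description with no test. Of 91 tested genes with PDS letters in the window of 250 bases before and 50 from the start codon, 31 were lower and 15 higher at 4 µg/mL than in the controls (34.1% and 16.5%, against 23.0% and 19.3% of all genes), and without SSA3 and HSP30 29 of 89 were lower. Of 1248 tested genes with STRE letters, 412 were lower and 201 higher (33.0% and 16.1%). Of 1305 with a paired HSE unit, 299 were lower and 286 higher (22.9% and 21.9%). The median log2 fold changes were -0.23, -0.15 and -0.01 for the 3 sets.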
